A study of Homo sapiens with 4 samples.

Results

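XBP1, SDF2L1 and EDEM1 are 3 genes of the unfolded protein response (UPR), the program with which a cell answers misfolded protein in the endoplasmic reticulum (ER). They were examined for peaks of N7-methylguanosine (m7G) in the poly(A) RNA of untreated HepG2 cells, a human hepatocellular carcinoma line. The design held 2 input samples and 2 m7G immunoprecipitation (IP) samples, named replicates 1 and 2. Each IP sample came with 1 list of peaks from the authors, a peak being a part of an mRNA called as enriched after IP. Input values and read depths were not analysed here, and no treatment, ER stressor or other genotype entered the design. The rows of both lists named XBP1, SDF2L1 or EDEM1 were taken. These were 4 of 3355 peaks in replicate 1 and 3 of 4747 in replicate 2, 7 of 8102 in all. The genes were chosen by name after the authors' fold enrichments in these same lists were known, so those folds are given as a description and without a test. All 3 genes had a peak in both lists, as did 51.7% of the 3769 genes that had one in at least 1 list, and nothing is read from that count. Separate cultures are not stated for the IP samples, so the spread between them may be technical.

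In the UPR, the ER sensor IRE1 (gene ERN1) cuts XBP1 mRNA, and the rejoined mRNA encodes an active transcription factor. XBP1 and the sensor ATF6 then raise the transcription of ER chaperones and of the ER-associated degradation (ERAD) machinery. SDF2L1 is an ER-resident protein that works with the chaperone BiP (gene HSPA5) and its J-domain partner DNAJB11. EDEM1 is a mannosidase-like protein that passes misfolded glycoproteins to ERAD. Secretory cells such as hepatocytes rely on this pathway. m7G is the base of the mRNA cap and has also been mapped inside mRNAs. The labels do not say whether caps were removed before IP, so cap and internal m7G cannot be told apart in a peak that reaches the 5' end.

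All 3 genes had a peak at or near the 5' end in each list. The sequences there hold the first base of the replicate 1 peak for XBP1 only, since those of SDF2L1 and EDEM1 began further upstream. The stretches of 60 bases below run from 30 bases before the RefSeq start of the gene (GRCh38.p14) to 30 bases from it, with capitals for bases inside a peak of replicate 1. They lie at chr22:28800540-28800599 on the minus strand for XBP1, chr22:21642272-21642331 on the plus strand for SDF2L1 and chr3:5187677-5187736 on the plus strand for EDEM1.
XBP1: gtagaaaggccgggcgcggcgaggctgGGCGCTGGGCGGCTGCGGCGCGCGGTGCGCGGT
SDF2L1: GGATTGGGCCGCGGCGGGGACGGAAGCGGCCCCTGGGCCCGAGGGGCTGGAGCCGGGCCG
EDEM1: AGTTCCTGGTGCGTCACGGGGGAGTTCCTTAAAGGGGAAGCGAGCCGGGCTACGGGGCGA
The XBP1 peak began 3 bases before the RefSeq start in both lists. The SDF2L1 peak began 49 bases before it in replicate 1 and 20 bases before it in replicate 2. The EDEM1 peak began 33 bases before it in replicate 1 and 27 bases after it in replicate 2. No peak of another gene name and no other gene of the RefSeq table overlapped these peaks.

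XBP1 had 1 peak in each list, with the same boundaries. On chromosome 22 (minus strand) it ran from 28799129 to 28800572 in 2 blocks. A block of 275 nt from 28800298 to 28800572 held the 5' end, and a block of 25 nt from 28799129 to 28799153 followed after a gap of 1144 nt, for a total of 300 nt. RefSeq gives XBP1 a second start at 28800077, which lies in that gap, so the block of 275 nt is wholly upstream of it. Of all peaks, 6.56% in replicate 1 and 4.63% in replicate 2 had identical start, end and blocks in the other list. The fold enrichment of the XBP1 peak was 2.76 in replicate 1 and 3.24 in replicate 2. Both values were low in their lists, above 31.8% and 37.2% of peaks. The authors' p-values were 3.2e-19 and 5e-22, smaller than those of 88.6% and 93.1% of peaks. The peak of this gene thus ranked low by fold and high by p-value in both lists.

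SDF2L1 also had 1 peak in each list, and it was longer in replicate 1. On chromosome 22 (plus strand) the replicate 1 peak ran from 21642253 to 21643028, with a block of 271 nt to 21642523, a gap of 338 nt and a block of 167 nt from 21642862, 438 nt in all. The replicate 2 peak was a single block of 205 nt from 21642282 to 21642486. It lay wholly inside the upstream block of replicate 1 and covered 46.8% of that peak. The fold was 8.61 in replicate 1 and 5.27 in replicate 2, above 89.5% and 69.4% of peaks. The authors' p-values were 7.9e-41 and 1.3e-11. The list with the longer peak thus had the higher fold and the smaller p-value, and SDF2L1 lay above the median fold in both lists. The value 8.61 occurred at this 1 peak of replicate 1, and 5.27 at 32 peaks of replicate 2.

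EDEM1 had 2 peaks in replicate 1 and 1 in replicate 2, all unspliced on chromosome 3 (plus strand). In replicate 1 a peak of 240 nt ran from 5187674 to 5187913, and a peak of 60 nt from 5188003 to 5188062, with 89 nt between them. In replicate 2 a single peak of 419 nt ran from 5187734 to 5188152. It covered 180 nt (75%) of the longer replicate 1 peak and the whole of the shorter one. The folds in replicate 1 were 37.1 for the longer peak and 2.27 for the shorter, and the fold in replicate 2 was 3.87. The value in replicate 2 lay near the middle of its list, above 49.8% of peaks, whereas 37.1 was exceeded by 7 peaks of replicate 1. The authors' p-values were 3.5e-06 for the longer peak, 0.00041 for the shorter and 2.2e-06 in replicate 2. The peak with the fold of 37.1 was close to the middle of its list by p-value, with a smaller value than 49.4% of peaks. The same fold of 37.1 was given to 18 peaks of replicate 1, and it is 5.0 times the commonest fold of that list, 7.42. The fold of 37.1 therefore marks EDEM1 as high in replicate 1 only, and replicate 2 does not repeat it.

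**Figure D1:**
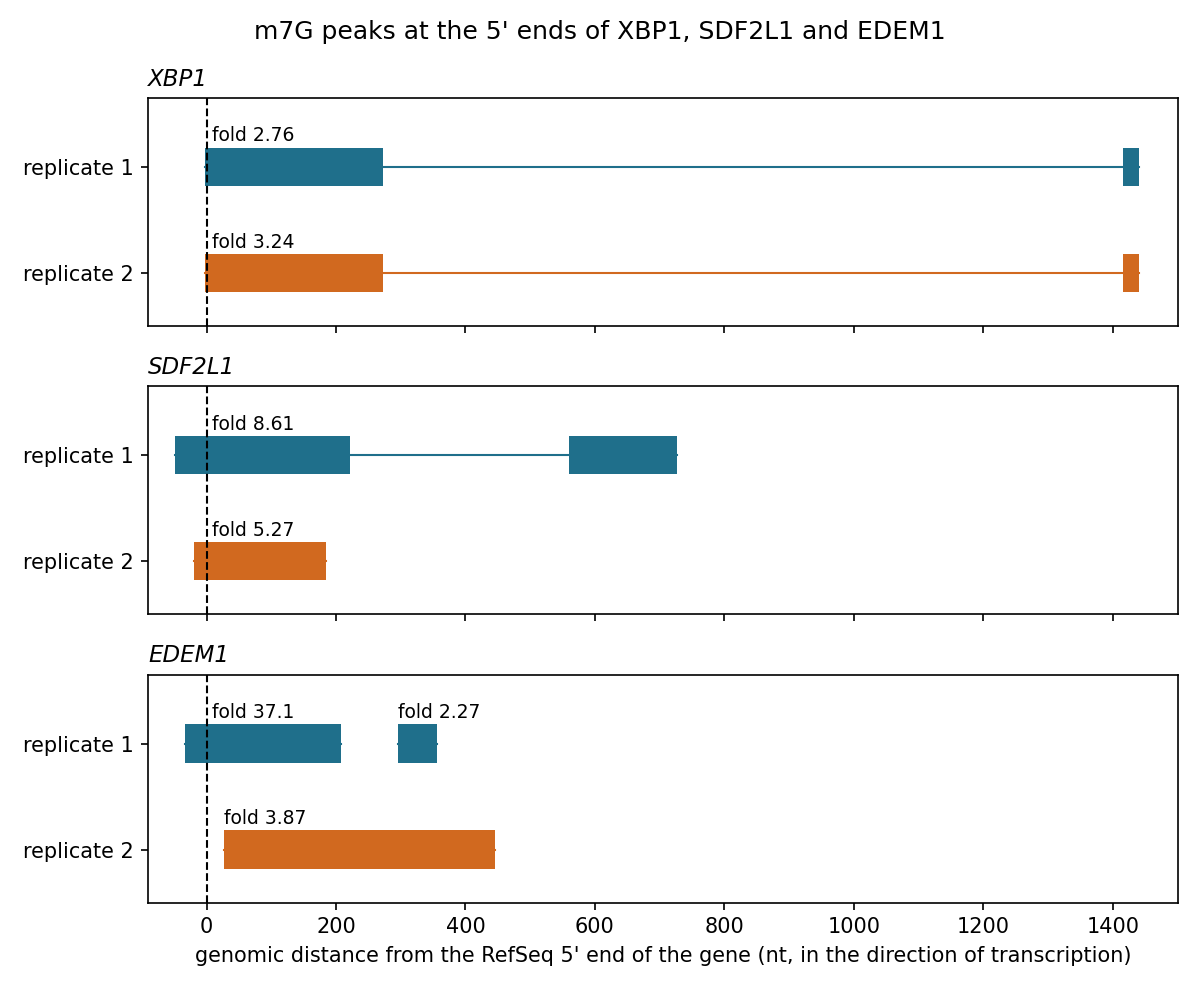
Peaks of XBP1, SDF2L1 and EDEM1 in replicate 1 (blue) and replicate 2 (orange), as genomic distance in nt from the RefSeq 5' end (dashed line), in the direction of transcription. Boxes are peak blocks, thin lines are the gaps inside a spliced peak, and the number is the authors' fold; the XBP1 peak has the same boundaries in both lists, SDF2L1 loses its downstream block in replicate 2, and the single replicate 2 peak of EDEM1 overlaps both replicate 1 peaks, the longer of them in part.

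The members differed in how closely their folds repeated. On the log2 scale the fold of the matched peak was 1.58 ± 0.16 (SD, n = 2) for XBP1, 2.75 ± 0.50 (SD, n = 2) for SDF2L1 and 3.58 ± 2.31 (SD, n = 2) for EDEM1. The larger fold was 1.17 times the smaller for XBP1 and 1.63 times for SDF2L1, but 9.59 times for EDEM1. Only the matched XBP1 peaks had the same extent. The overlap was 46.8% of the replicate 1 peak for SDF2L1 and 43% of the replicate 2 peak for EDEM1. The bearing of peak extent on this ratio was not tested. The median of this ratio was 1.25 over the 2128 shared peaks, those matched between the lists by an overlap of at least 50% of the shorter peak. A larger ratio than that of XBP1 was found at 62.1% of shared peaks, than that of SDF2L1 at 21.6%, and than that of EDEM1 at 7 peaks (0.329%). EDEM1 was above SDF2L1 in replicate 1 (37.1 and 8.61) and below it in replicate 2 (3.87 and 5.27), so the order of these genes was not settled. XBP1 had the lowest fold of the 3 matched peaks in both lists. Differences between members were not tested, since the genes were chosen with these folds known. Counted by that overlap before one to one matching, all 4 member peaks of replicate 1 and all 3 of replicate 2 had a counterpart in the other list. Both EDEM1 peaks of replicate 1 had the same counterpart. Among all peaks the shares counted in this way were 65.1% in replicate 1 and 45.4% in replicate 2.

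**Figure D2:**
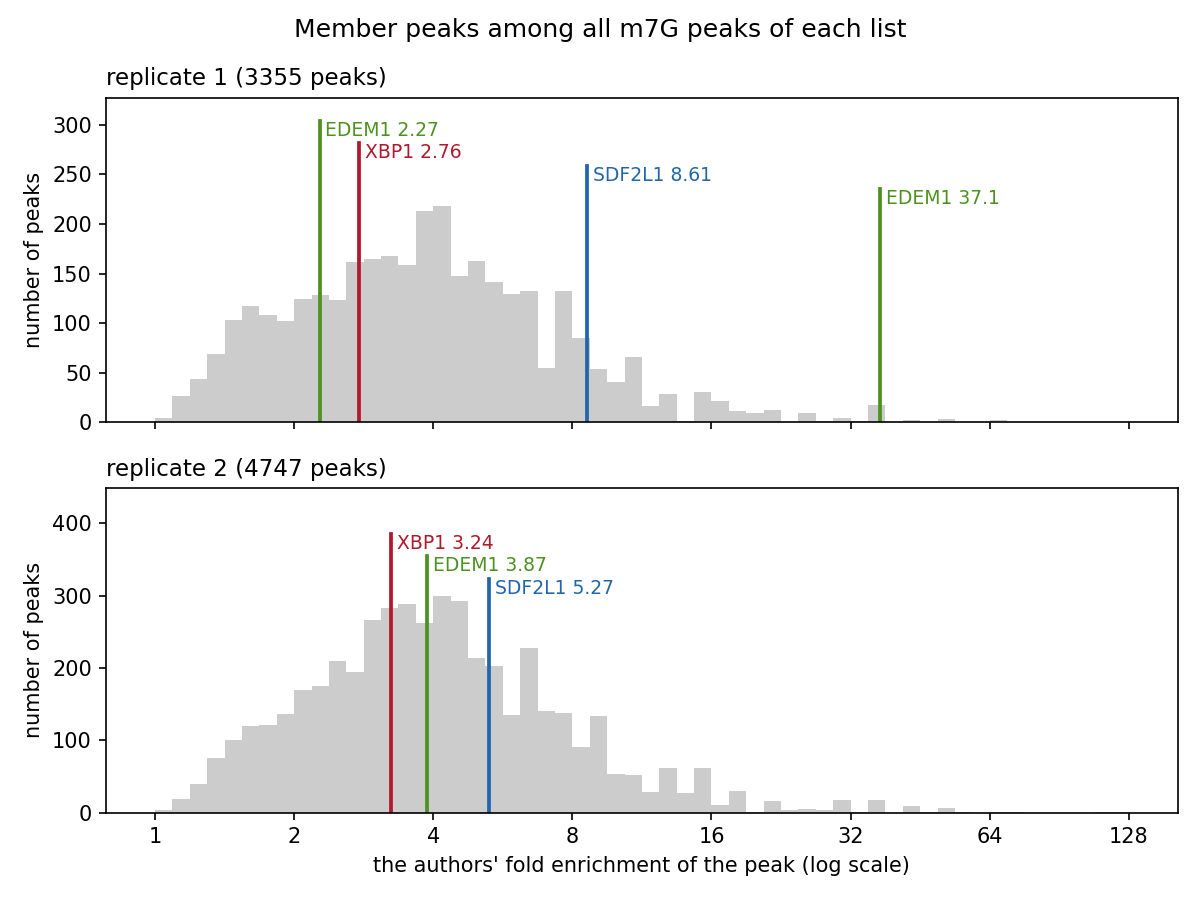
Histograms of the authors' fold enrichment (log scale) over all 3355 peaks of replicate 1 (top) and 4747 peaks of replicate 2 (bottom), with the member peaks as coloured lines. XBP1 lies on the lower side of both histograms, SDF2L1 on the upper side, and EDEM1 has 37.1 and 2.27 in replicate 1 but 3.87 in replicate 2.

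Position was not part of how the genes were chosen. The midpoint of the XBP1 peak, taken along its blocks, was 147 nt from the 5' end of the gene in both lists. It was 170 and 82 nt for SDF2L1 in replicates 1 and 2. For EDEM1 it was 87 and 326 nt in replicate 1 and 236 nt in replicate 2. Midpoints less than 200 nt downstream of the 5' end, or at any distance upstream of it, were counted as 5'-end peaks. By this, 3 of 4 member peaks of replicate 1 and 2 of 3 of replicate 2 were 5'-end peaks. The share over all placed peaks was 27.4% in replicate 1 and 21.6% in replicate 2. The 7 peaks of 3 genes are too few to compare with these shares, and members overlap between lists. The gene spans are 6010 nt for XBP1, 1998 nt for SDF2L1 and 32252 nt for EDEM1, so the EDEM1 peaks lay in a small part at the start of the longest span. Set against 5'-end peaks only, whose median fold was 4.95 in replicate 1 and 4.92 in replicate 2, XBP1 exceeded 18.1% and 23.3% of them and SDF2L1 81.6% and 54.6%. The longer EDEM1 peak of replicate 1 exceeded 98.4%, the shorter 10.1%, and the EDEM1 peak of replicate 2 33.2%. No midpoint of these genes lay further than 326 nt from the 5' end in either list.

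The transcripts of all 3 genes open with G-rich sequence. Among the 50 bases that follow the RefSeq start, XBP1 has 25 G, SDF2L1 27 and EDEM1 28, and the GC content is 74%, 84% and 76%. The median was 21 G (interquartile range 17 to 25) and 76% GC over the 425 genes with a window among the 580 with a 5'-end peak in both lists. For genes with a peak elsewhere only it was 19 G and 68% GC (1564 of 2416 genes with a window), and for all 24882 genes with a window 15 G and 60% GC. SDF2L1 and EDEM1 thus lay above the upper quartile of G of genes with 5'-end peaks in both lists, and XBP1 at it. EDEM1 is not itself among those genes, since it had no 5'-end peak in replicate 2. By GC content, SDF2L1 lay above their upper quartile of 80%, EDEM1 at the median and XBP1 below it. The 50 bases are only part of each peak, and the bearing of base composition on the folds was not tested.

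Upstream of the start, SDF2L1 and XBP1 carry letter matches to elements through which ATF6 and XBP1 act on UPR genes. The upstream sequences are shown for these matches. The ER stress response element (ERSE) was searched as CCAAT, 9 bases of any kind and CCACG, and ERSE-II as ATTGG, 1 base of any kind and CCACG, both on both strands. The motifs share their parts on opposite strands, and no window held both. The stretches below are the 250 bases before the RefSeq start (GRCh38.p14), 5' to 3' on the gene's strand, with matches in capitals. They lie at chr22:28800570-28800819 (minus strand) for XBP1, chr22:21642052-21642301 (plus strand) for SDF2L1 and chr3:5187457-5187706 (plus strand) for EDEM1.
XBP1: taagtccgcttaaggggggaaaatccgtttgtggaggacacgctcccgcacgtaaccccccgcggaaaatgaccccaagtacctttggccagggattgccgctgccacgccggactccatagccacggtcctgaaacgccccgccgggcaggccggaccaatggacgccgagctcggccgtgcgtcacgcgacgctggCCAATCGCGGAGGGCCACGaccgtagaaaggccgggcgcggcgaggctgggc
SDF2L1: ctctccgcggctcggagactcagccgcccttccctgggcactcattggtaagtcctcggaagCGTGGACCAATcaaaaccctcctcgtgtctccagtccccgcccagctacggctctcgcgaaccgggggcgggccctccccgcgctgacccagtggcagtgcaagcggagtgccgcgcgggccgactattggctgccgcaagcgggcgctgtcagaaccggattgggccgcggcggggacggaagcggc
EDEM1: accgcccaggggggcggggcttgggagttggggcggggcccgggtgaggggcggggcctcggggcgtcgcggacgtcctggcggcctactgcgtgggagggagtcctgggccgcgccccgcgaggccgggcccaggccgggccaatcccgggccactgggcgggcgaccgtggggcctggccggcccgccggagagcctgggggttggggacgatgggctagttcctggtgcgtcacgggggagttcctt
XBP1 has an ERSE of 19 bases whose last base lies 34 bases before the start. SDF2L1 has an ERSE-II of 11 bases on the opposite strand, ending 178 bases before the start. Neither spelling was found in the EDEM1 window, which says only that these letters are not in it. Among all 35116 windows of 300 bases in the RefSeq table (250 before and 50 from a start), 0.0769% hold the ERSE and 0.0541% the ERSE-II. Of the UPR and ER genes listed below that have a window, 11 of 64 (17.2%) hold either, compared with 14 of 1508 genes with peaks in both lists (0.928%) and 0.161% of all gene symbols. The ERSE holders in that list are XBP1, HSPA5, HSP90B1, CALR, CANX, CRELD2, ERO1B and PDIA6, and the ERSE-II holders SDF2L1, HERPUD1 and HYOU1. All of them but CANX and ERO1B had peaks in both lists. Both motifs were first described in such genes, so their share in the list is a description and no support. A match in DNA is not evidence of binding in these cells.

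The wider pathway was described from a list of 72 UPR and ER quality control genes. Of these, 46 had a peak in at least 1 list, and 30 of the 46 (65.2%) had peaks in both, beside 51.7% over all genes. At the 30 genes the median of the highest fold per gene was 2.71 in replicate 1 and 3.64 in replicate 2, below the medians of 4.33 and 4.62 over all 1947 genes with peaks in both. By the highest fold, EDEM1 ranked 1 and 14 among the 30 in replicates 1 and 2, SDF2L1 2 and 8, and XBP1 15 and 17. Of all peaks of the list, 21 of 48 (43.8%) in replicate 1 and 23 of 58 (39.7%) in replicate 2 were 5'-end peaks. Over all placed peaks the shares were 27.4% and 21.6%, and the difference was not tested. The list was drawn up with earlier results on ER genes in these peak lists known, and genes without a peak may be unexpressed.

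Chaperones and folding enzymes, the largest group of the list, made up 17 of its 30 genes with peaks in both lists. Of 23 such genes, 17 had any peak and all 17 had peaks in both lists, beside 51.7% over all genes with any peak. A 5'-end peak in both lists was found in 11 of the 17, and in 580 (29.8%) of the 1947 genes with peaks in both. The median highest folds of the 17 were 2.47 and 2.78, so SDF2L1 stood on the high side of its own group. HSPA5, the BiP chaperone itself, had folds of 1.58 and 1.76, and DNAJB11 had 3.29 and 2.89. The midpoints of these peaks were 165 and 150 nt from the 5' end for HSPA5 and 105 and 90 nt for DNAJB11, so both SDF2L1 partners had their peak in the same part of the gene. HSP90B1, the ER form of HSP90, had 2.65 and 7.59, and DNAJB9, another J-domain protein of BiP, 2.24 and 4.84. HYOU1, a nucleotide exchange factor, had 4 and 5 peaks, with highest folds of 2.09 and 2.6. Low folds were also found for CALR (calreticulin; 1.58 and 1.64) and for the disulfide isomerase P4HB (1.49 and 1.7). PDIA4, of the same family, had highest folds of 1.66 and 1.6 at different peaks, and 1.66 and 1.52 at its best shared peak. SDF2, the paralog of SDF2L1, and the lectin chaperone CANX had no peak.

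In ERAD, 12 of 20 genes had a peak. Beside 51.7% over all genes with any peak, 6 of the 12 (50%) had peaks in both lists. Besides EDEM1 these were NPLOC4 (folds 6.36 and 5.85) and SELENOS (6.26 and 4.27), which act with the segregase VCP, the lectin ERLEC1 (6.32 and 4.87), the ubiquitin ligase SYVN1 (1.89 and 2.49) and HERPUD1 (1.57 and 1.32). NPLOC4, SELENOS, ERLEC1 and HERPUD1 had a 5'-end peak in both lists, and their folds lay closer together than the 37.1 and 3.87 of EDEM1. These 4 of 6 genes stand beside 29.8% of all genes with peaks in both, and 6 genes are too few to compare. The EDEM1 paralogs EDEM2 and EDEM3 had no peak in either list, nor did SEL1L, the partner of SYVN1.

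The sensors had 1 peak in replicate 1 and 3 in replicate 2. None was a 5'-end peak, beside 27.4% and 21.6% of all placed peaks, but so few peaks cannot be compared with these shares. Of the 4 transcription factors with peaks in both lists, 2 had a 5'-end peak in both, beside 29.8% of all such genes. Among the sensors, ATF6B had folds of 4.53 and 5.48 at a peak 12574 and 12559 nt from the 5' end, ERN1 (4.68) and EIF2AK3 (11.1) had a peak in replicate 2 alone, and ATF6 had none. Of the 7 transcription factors, 5 had any peak. Beside 51.7% over all genes with any peak, 4 of the 5 had peaks in both lists and 1 in replicate 2 alone. So few genes cannot be compared with that share. NFE2L2 (5.19 and 4.92) had a 5'-end peak in both, as XBP1 did. CEBPB (4.3 and 8.53) had its highest-fold peak 639 and 579 nt from the 5' end. ATF4, whose translation rises in the UPR, had a shared peak with 1.41 and 1.33 and a 5'-end peak with 1.93 in replicate 1 alone, and DDIT3 had no peak. The translocon and ER entry genes had no gene with peaks in both lists, with 2 of 12 in replicate 1 alone and 3 in replicate 2 alone. These 5 genes with a peak are too few to set against the 51.7% over all genes. Of the genes that feed back on eIF2alpha phosphorylation or follow ATF4, TRIB3 (2.45 and 4.95) and SESN2 (2.43 and 3.72) had peaks in both. No test of a difference between these groups was run.

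**Figure D3:**
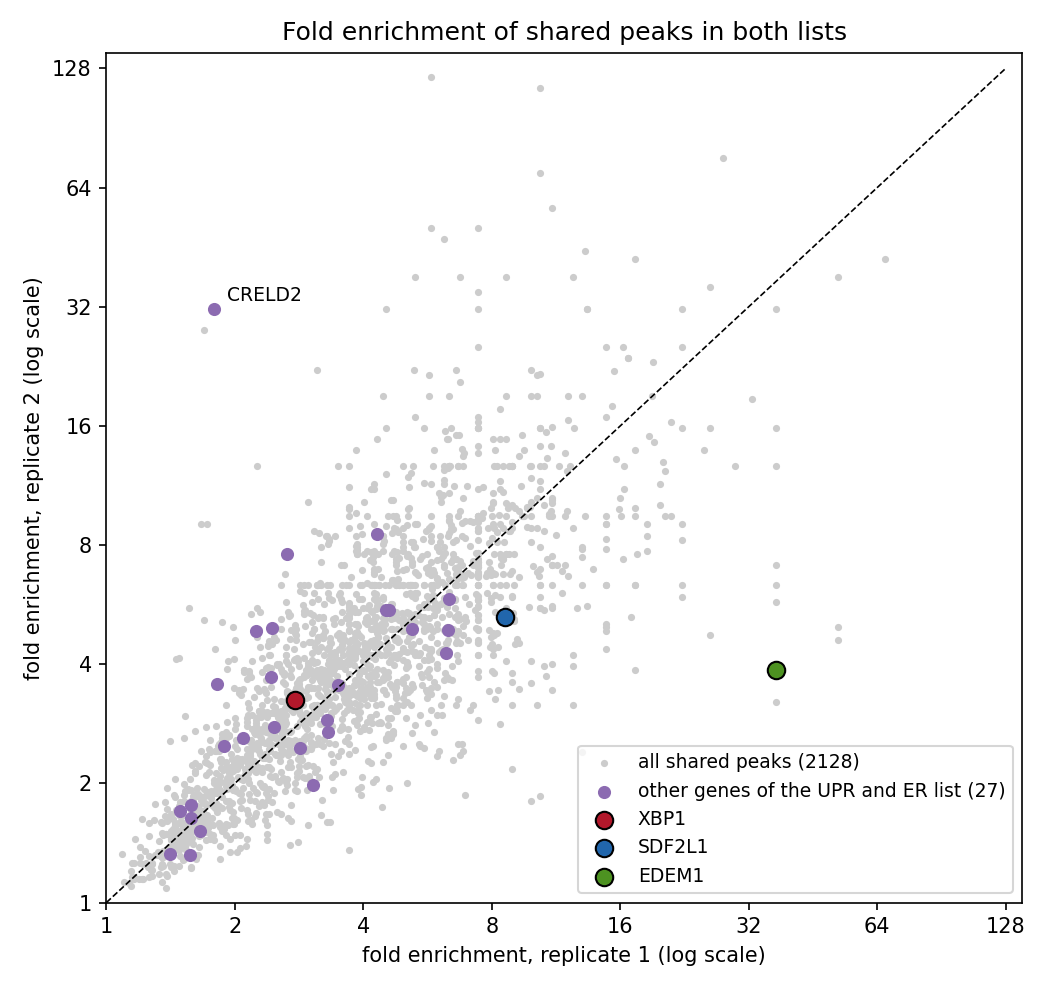
Authors' fold enrichment in replicate 1 (x, log scale) against replicate 2 (y, log scale) for 2128 shared peaks (grey), with the best shared peak of 27 other UPR and ER genes (purple) and of XBP1, SDF2L1 and EDEM1. The dashed line marks equal folds; XBP1 (2.76 and 3.24) lies near it, SDF2L1 (8.61 and 5.27) below it, and EDEM1 (37.1 and 3.87) far below it, while CRELD2 (1.79 and 31.6) lies far above it.

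The genes most like each member were sought over the 2 lists, by the Euclidean distance between the log2 folds of the best shared peak. Nearest to XBP1 were ZNRF1 (folds 2.76 and 3.29), ZSWIM8 (2.73 and 3.28) and CHPT1 (2.75 and 3.31), at distances up to 0.031. Nearest to SDF2L1 were PIP5K1C (8.66 and 5.27), MMD (9.01 and 5.21) and GPT2 (8.98 and 5.4), at distances up to 0.07. EDEM1 had no close neighbour, the nearest being CERS2 (37.1 and 3.22) at 0.265, then MTMR2 (51.9 and 4.6) and GPI (37.1 and 5.75). None of these 9 genes belongs to the UPR and ER list, which holds only 30 of the 1708 genes with a shared peak, so nothing is read from this. Of the cell type markers, 8 of 18 for hepatocytes had peaks in each list, as did 2 of 6 immune markers (CD68 and LYZ) and 1 of 6 endothelial and stellate markers (ACTA2). Peak lists do not measure expression, so a marker without a peak is not shown to be absent. For the same reason these counts cannot check the cell label.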

How the data were processed

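The m7G peak lists of 2 IP samples of HepG2 poly(A) RNA were used. Per the submitters' processing notes, STAR and GRCh38 were used, in roles and versions that they leave out; the peak calling tool is not given in the sources used here, nor are its filters. Per the file headers, each deposited list gives a peak's position, blocks, strand and gene name with the authors' p-value, log10 p and log10 FDR (used as scores) and fold enrichment, a ratio whose scaling and compared libraries are not stated. The weakest deposited FDR score corresponds to a -log10 of 1.32. Read depth is unknown, so no counting interval is given.

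Peaks were matched between lists by gene name, strand and an overlap of at least 50% of the shorter peak along blocks, then one to one by the longest overlap. Distances were taken from RefSeq gene spans (GRCh38.p14); 3 and 8 peaks could not be placed. The list name VIMP was read as SELENOS. Promoter windows came from RefSeq, for all 3 members and 64 of 72 list genes. No statistical test was run. Matching and distances were tested on simulated peaks. Members and gene lists were chosen with earlier results of these data known. Named genes are the members, list genes, and the 3 nearest genes per member, with cell type markers and, in the closing section, genes chosen after their values were seen; 1 further gene is not reported here. Alternatives were other overlaps, peaks with smaller p-values, other reference peaks, each replicate alone and the peak's 5' edge. Python 3.11.15, numpy 2.4.6, pandas 2.3.3 and matplotlib 3.10.9 were used.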

Additional observations from a re-analysis of the deposited data

How the results depend on the processing

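All 3 members had a shared peak by 50% of the shorter peak and by 1 base. With 80% of both peaks required, 1 member (XBP1) and 14 list genes, against 30 by name, had one. Fewer pass by construction, and the share over all genes at this setting is not given here. On the 50% of peaks with the smallest p-values in each list, 2 members had a shared peak, without EDEM1. There, 24 of the 40 list genes with a peak had peaks in both, beside 1060 of 2124 genes (49.9%) over all. The fold percentile of XBP1, 34.5 as the mean of the lists, was 24.5 against the highest-fold peak of each gene and 40.6 against spliced peaks; the cause was not tested. Those of SDF2L1 (79.5) and EDEM1 (74.5) fell to 72.8 and 68.4 at the lowest. These shifts were smaller than the spread between replicates, 89.5 and 69.4 for SDF2L1 and 99.3 and 49.8 for EDEM1. The replicates of XBP1 lay closest together (31.8 and 37.2), so that measure was the strictest for XBP1. Without one replicate, the log2 fold ranged from 1.46 to 1.7 for XBP1, from 2.4 to 3.11 for SDF2L1 and from 1.95 to 5.21 for EDEM1. Measured from the peak's 5' edge instead of its midpoint, the mean distance to the 5' end was -3 nt for XBP1, -34.5 nt for SDF2L1 and -3 nt for EDEM1, against 147, 126 and 161.5 nt; another point of the peak is measured by construction. No paired analysis was possible because input values were not analysed here. The number of genes in both lists has no value from 1 replicate.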

Other observations

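The 8 shared peaks whose folds differed most between the lists were taken down to the ratio of EDEM1 (9.59), so its own place was fixed. The UPR and ER list holds 30 of the 1708 genes with a shared peak, and nothing is read from its count here. EDEM1 was 1 of 2 such list genes among the 8. The other was CRELD2, an ER protein induced by ER stress, with folds of 1.79 and 31.6, the larger value being in the other list from that of EDEM1. The fold of 31.6 was given to 17 peaks of replicate 2 and is 4.99 times the commonest fold of that list, 6.33, as 37.1 is 5.0 times the commonest fold of replicate 1. Among the 8 were also CERS2 (37.1 and 3.22), MTMR2 (51.9 and 4.6) and LAMC1 (51.9 and 4.97), higher in replicate 1, and ERF (1.69 and 28) and ENKD1 (10.4 and 114), higher in replicate 2. Of the 18 replicate 1 peaks with the fold of 37.1, 11 were 5'-end peaks, beside 27.4% of all placed peaks of that list. The 18 were picked by the fold of EDEM1, so nothing is read from this share. The -log10 p of the 18 peaks ranged from 4.08 to 66.9 with a median of 4.93, beside 5.45 for EDEM1. These genes were chosen after their values were seen.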
